A study of Mus musculus with 3 samples.

Results

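The cells described here are the CD4 helper and regulatory T cells of mouse brains bearing a glioblastoma, chosen by a gate on 12 genes in single-cell RNA-sequencing data. A cell entered the gate when it carried at least 1 UMI (a molecule counted once by its molecular identifier) of the CD3 genes Cd3d, Cd3e and Cd3g summed and at least 1 UMI of Cd4, Icos, Il2ra or Ctla4. It also had to have no UMI of the CD8 coreceptor genes Cd8a and Cd8b1, of the natural killer receptor genes Ncr1 and Klre1, or of the macrophage receptor gene Csf1r. The gate held 209 of the 4269 cells that passed the filters, of which 97 came from the vehicle library, 54 from niacin replicate 1 and 58 from niacin replicate 2. Because these 12 genes chose the cells, their values are given as a description and were not tested.

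CD4 T cells recognize peptides on MHC class II molecules and act through secreted cytokines and through surface molecules such as CD40 ligand, which activates antigen-presenting cells and B cells. Helper T cells are grouped by their lineage regulators, with T-bet (Tbx21) for T helper 1, GATA3 for T helper 2 and BCL6 for follicular helper cells. Regulatory T cells carry the transcription factor FOXP3, restrain other T cells, and are known to gather in gliomas.

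All mice were female wild-type C57BL/6 animals of 6-8 weeks that received brain tumor-initiating cells of 1 mouse line (BT0309, from NPcis mice, which lack 1 copy each of Nf1 and Trp53) in the right striatum. Niacin mice were injected intraperitoneally with 100 mg/kg niacin every day from day 7 after implantation, and vehicle control mice with saline; all brains were taken at week 4. Tissue around the injection site was pooled over mice and live cells were sorted without selection for T cells, so that each library is 1 pool: 1 vehicle control library (labelled replicate 2) and 2 niacin libraries (replicates 1 and 2). With 1 vehicle library, treatment and library cannot be told apart. The p-values below rest on the spread between these pools as estimated over genes together.

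The libraries held 2145 to 2532 barcodes each and shared 484 to 918 of them with another library. A shared barcode was kept only where its UMIs were at least 5 times those of its copy, and 4, 12 and 2 of the gated cells of vehicle, niacin replicate 1 and niacin replicate 2 carried such a barcode. The median CD4 T cell had 4668, 3509 and 5676 UMIs in the 3 libraries in that order. 1 barcode stands apart. It belongs to niacin replicate 1, is shared with another library, holds 30849 UMIs, which is 11.5% of all UMIs of that library's CD4 T cells, and 46.6% of its UMIs are of B cell and plasma cell genes (9473 of Igkc, 4001 of Ighm and 882 of Jchain). It passed the gate with 8 UMIs of Cd3g, 12 of Ctla4 and 1 of Il2ra. In every other gated cell B cell genes made up at most 0.450% of the UMIs. The rule keeps this barcode, called the B-rich barcode below. Counts over all genes between CD4 and CD8 cells and between niacin and vehicle, and those of some lists, are given with and without it.

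The gate genes were spread unevenly over the cells. Cd4 itself, the coreceptor that binds MHC class II, was seen in 60 of 97, 37 of 54 and 39 of 58 cells. Icos, a costimulatory receptor, was seen in 71, 22 and 28 cells in the same order, 121 in all. Ctla4, an inhibitory receptor, was seen in 58, 22 and 12 cells, 92 in all. Il2ra, the interleukin-2 receptor alpha chain, was seen in 40, 13 and 12 cells, 65 in all. In 7, 13 and 20 cells Cd4 was the only gene seen among these 4. Of the 209 cells, 161 had at least 2 UMIs of these 4 genes and 48 sat at the edge of the gate with 1 UMI. Just outside it, 28 cells met every other condition but carried exactly 1 UMI of an excluding gene, and 365 CD3-positive cells had no UMI of the 4 genes. The 2 markers of these cells that the gate did not use, Tnfrsf4 (OX40) and Izumo1r (folate receptor 4), were both higher in CD4 than in CD8 T cells, as given below. They are no independent check, since the markers were listed with earlier results of these data known.

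Markers of other cell types were read in the same cells as summed CPM, counts per 1000000, that is, the UMIs of a list scaled to the total UMIs of a library's CD4 T cells. The microglia list of 10 genes came to 334 CPM in vehicle, 314 in niacin replicate 1 and 330 in niacin replicate 2, against 28355 to 43807 CPM in microglia. The monocyte and macrophage list of 10 genes came to 389 to 544 CPM, with Csf1r and Ms4a7 at 0 in all 3 libraries. The natural killer list of 10 genes came to 64 to 242 CPM, with Ncr1, Klre1, Klra8 and Klra9 at 0. The B cell list of 8 genes came to 386, 53981 and 188 CPM, the middle value being set by the B-rich barcode. UMIs of 4 gamma-delta T cell receptor genes were seen in 9, 4 and 3 of the gated cells.

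CD4 T cells made up a larger share of the vehicle library than of either niacin library. They were 97 of 1264 cells in vehicle (7.67%, exact binomial 95% interval 6.27 to 9.28), 54 of 1411 in niacin replicate 1 (3.83%, 2.89 to 4.96) and 58 of 1594 in niacin replicate 2 (3.64%, 2.77 to 4.68). The vehicle interval overlaps neither niacin interval, and the niacin libraries lie within each other's intervals, which cover counting error only. Of all CD3-positive cells, CD4 T cells were 35.5% in vehicle (29.9 to 41.5). In niacin replicates 1 and 2 they were 25.2% (19.6 to 31.6) and 28.4% (22.4 to 35.2). On this base the vehicle interval overlapped both niacin intervals. CD8 T cells, gated the same way on Cd8a or Cd8b1 with Cd4 at 0, were 25, 48 and 43 cells (1.98%, 3.40% and 2.70%). Among CD4 and CD8 cells together, CD4 cells were 79.5% in vehicle (71.3 to 86.3), 52.9% in niacin replicate 1 (42.8 to 62.9) and 57.4% in niacin replicate 2 (47.2 to 67.2). The difference was not tested, since there is 1 vehicle library, and the share of a gate that needs a detected UMI moves with depth: the median over all cells was 3276 UMIs in vehicle and 5128 and 5231 in the niacin libraries.

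**Figure D1:**
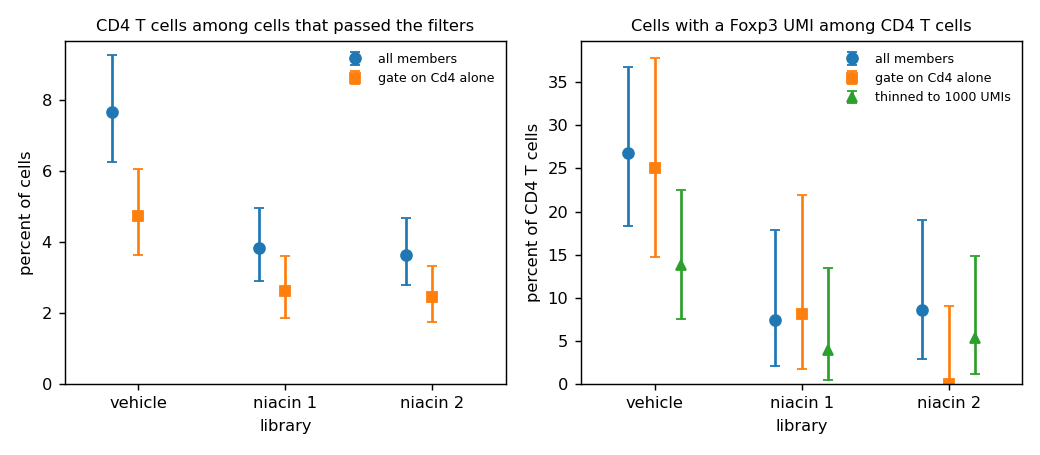
Shares in percent (vertical axes) in the vehicle, niacin 1 and niacin 2 libraries (horizontal axes), left of CD4 T cells among cells that passed the filters and right of cells with a Foxp3 UMI among CD4 T cells; bars are exact binomial 95% intervals, and squares and triangles give the gate on Cd4 alone and cells thinned to 1000 UMIs. The vehicle point is highest in each setting (7.67% against 3.83% and 3.64% on the left, 26.8% against 7.41% and 8.62% on the right).

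CD8 T cells of the same libraries are the class most like the CD4 cells, and the comparison asks what else besides the gate genes sets the CD4 cells apart. Cells could enter the CD4 gate by Icos, Il2ra or Ctla4 without Cd4, while the CD8 gate asked for none of these. How much of the differences in costimulatory and regulatory T cell genes follows from this was not tested. CD4 T cells had higher levels of CD40 ligand, the tumor necrosis factor receptors OX40 and GITR, the transcription factors Maf, Gata3 and Ikzf2, and the chemokine receptor Ccr2, and lower levels of Ccl5, Nkg7, Ly6c2 and the integrins Itgae and Itga1. UMIs were added up within each class of each library, and the 6 sums were tested by quasi-likelihood in edgeR, blocked on library; adjusted p-values are Benjamini-Hochberg over all genes tested, and a gene is called where the adjusted p is under 0.05. Of 4831 genes tested, 2.17% were higher and 1.74% lower in CD4 cells (105 and 84 genes). Without the B-rich barcode the counts were 102 and 70 (2.2% and 1.51%), without the Foxp3-positive cells 86 and 65 (1.88% and 1.42%), and by DESeq2 28 and 24.

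Among 9 costimulatory receptors and ligands tested, 6 were higher in CD4 cells (Cd28, Cd40lg, Slamf6, Tnfrsf18, Tnfrsf4 and Tnfsf11), 1 was lower (Cd226) and 2 were not called, with a median log2 difference of 1.23 against -0.01 over all genes; the counts did not change without the B-rich barcode. Cd40lg, which encodes CD40 ligand (chrX:57212143-57224042, plus strand, GRCm38), stood at 54, 198 and 152 CPM in the CD4 cells of vehicle, niacin replicate 1 and niacin replicate 2, and at 0, 0 and 20 CPM in their CD8 cells. Every CD4 value lay above every CD8 value, and the log2 difference was 3.96 (SE 0.52, edgeR adjusted p = 9.9e-05). Tnfrsf4, encoding OX40, stood at 407, 183 and 188 CPM in CD4 cells and at 0, 34 and 7 CPM in CD8 cells (log2 difference 3.85, SE 0.41, edgeR adjusted p = 8.96e-06). The groups again did not overlap. Cd28, the main costimulatory receptor of T cells, was at 439, 288 and 277 CPM against 145, 122 and 126 CPM (log2 difference 1.23, SE 0.19, edgeR adjusted p = 0.000485). Cd226, an activating receptor, was at 129, 112 and 208 CPM against 247, 308 and 239 CPM (log2 difference -0.89, SE 0.22, edgeR adjusted p = 0.0245), a call that ended without niacin replicate 1 (adjusted p = 0.13). By DESeq2 the calls of Cd40lg, Tnfrsf18 and Tnfsf11 were also lost, with adjusted p-values of 0.18, 0.18 and 0.304.

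Of 13 regulatory T cell genes tested, 7 were higher in CD4 cells (Capg, Foxp3, Ikzf2, Il1rl1, Izumo1r, Tnfrsf18 and Tnfrsf4) and 1, Itgae, was lower, with a median log2 difference of 1.35. Without the B-rich barcode 7 of 14 were higher, and without all cells carrying a Foxp3 UMI 5 of 11 were. Il2ra and Ctla4 of this list let cells into the CD4 gate but not the CD8 gate, and were not tested. Ikzf2, encoding the transcription factor Helios (chr1:69531214-69687245, minus strand, GRCm38), had 1208, 310 and 182 CPM in CD4 cells and 131, 21 and 61 CPM in CD8 cells. Each CD4 value was above all CD8 values (log2 difference 2.71, SE 0.29, edgeR adjusted p = 7.91e-06). Izumo1r was at 289, 79 and 76 CPM against 29, 46 and 3 CPM, also without overlap (log2 difference 2.25, SE 0.41, edgeR adjusted p = 0.0023). Foxp3 (chrX:7573644-7595245, plus strand, GRCm38) was at 259, 64 and 33 CPM in CD4 cells and at 0, 42 and 0 CPM in CD8 cells, where all 10 UMIs came from 1 cell. Its groups overlap, and its call (log2 difference 2.53, SE 0.59, edgeR adjusted p = 0.0197) ended without the vehicle library (log2 difference 1.36, adjusted p = 0.223) and when the CD4 gate was set on Cd4 alone (adjusted p = 0.0598). Itgae, encoding the αE integrin that binds E-cadherin and is also carried by tissue-resident CD8 cells, was at 19, 4 and 7 CPM in CD4 cells against 189, 118 and 143 CPM in CD8 cells (log2 difference -3.90, SE 0.38, edgeR adjusted p = 2.96e-06).

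**Figure D2:**
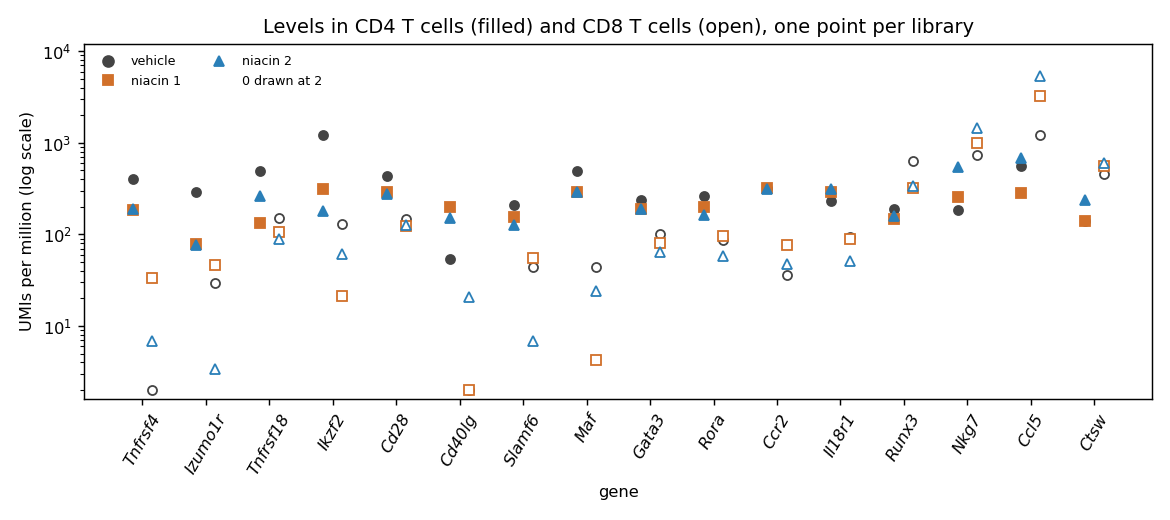
CPM on a log axis (vertical) of 16 genes (horizontal axis) in CD4 T cells (filled) and CD8 T cells (open), with 1 point per library and a value of 0 drawn at 2. For Tnfrsf4, Ikzf2, Cd40lg and Maf every filled point lies above every open one, and for Runx3, Nkg7, Ccl5 and Ctsw every filled point lies below.

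All 3 T helper 2 genes tested (Ccr4, Gata3 and Maf) were higher, 2 of 3 without the B-rich barcode, where the adjusted p of the chemokine receptor gene Ccr4 was 0.0522. Maf, a transcription factor of interleukin-4 and interleukin-10 production, had 493, 288 and 287 CPM in CD4 cells and 44, 4 and 24 CPM in CD8 cells, with no overlap (log2 difference 3.87, SE 0.31, edgeR adjusted p = 3.67e-07). Gata3 was at 236, 191 and 188 CPM against 102, 80 and 65 CPM (log2 difference 1.26, SE 0.23, edgeR adjusted p = 0.00201; DESeq2 adjusted p = 0.168). Il4 was carried by 3 CD4 cells in each library and by no CD8 cell, and neither class had a UMI of Il13.

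All 3 T helper 17 genes tested, Rora, Tmem176a and Tmem176b, were higher as well. Rora, a nuclear receptor also used by innate lymphoid cells, was at 261, 198 and 162 CPM against 87, 97 and 58 CPM (log2 difference 1.27, SE 0.23, edgeR adjusted p = 0.002; DESeq2 adjusted p = 0.155). Tmem176a, a membrane protein gene, was at 66, 198 and 69 CPM in CD4 cells, carried by 8, 10 and 7 of them, and at 0, 0 and 3 CPM in CD8 cells, 105 UMIs against 1 (ratio 67.6, exact 95% counting interval 11.9 to 2695; edgeR adjusted p = 1.43e-05). In vehicle 19 of its 31 UMIs were in 1 CD4 cell. Without the B-rich barcode its 53 UMIs in niacin replicate 1 became 40 (169 CPM). Il17a, the lineage's cytokine, was seen in 1, 0 and 1 CD4 cells. For the T helper 1 list of 10 genes, 1 was higher in CD4 cells, the interleukin-18 receptor gene Il18r1 (234, 292 and 311 CPM against 95, 89 and 51 CPM, log2 difference 1.85, edgeR adjusted p = 9.91e-05), and 1 was lower, Runx3, a transcription factor of the CD8 lineage (189, 146 and 159 CPM against 633, 325 and 338 CPM, log2 difference -1.45, edgeR adjusted p = 9.91e-05). Tbx21 itself was at 34, 15 and 23 CPM in CD4 cells and 58, 42 and 38 CPM in CD8 cells and was not called (log2 difference -1.01, edgeR adjusted p = 0.328). Tbc1d4, which regulates glucose transporter traffic, and Tmem64 were the other genes among those with the largest positive differences (log2 differences of 3.15 and 3.05), beside Igkc and Ighm, whose calls ended without the B-rich barcode (adjusted p = 0.929 and 0.355).

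Of 13 cytotoxic effector genes tested, none was higher and 11 were lower in CD4 cells, with a median log2 difference of -1.99; 8 were lower without the B-rich barcode, with the calls of Ccl4, Gzmk and Klrk1 lost. Ccl5, a chemokine of effector T cells, was at 559, 281 and 687 CPM in CD4 cells and 1207, 3279 and 5430 CPM in CD8 cells. The groups did not overlap, and the log2 difference was -2.63 (SE 0.30, edgeR adjusted p = 1.8e-05). Nkg7, a cytotoxic granule protein gene, was at 184, 258 and 548 CPM against 734, 1004 and 1454 CPM (log2 difference -1.83, SE 0.18, edgeR adjusted p = 2.96e-06). Gzma was at 141, 0 and 0 CPM against 502, 38 and 311 CPM, groups that overlap (log2 difference -2.86, edgeR adjusted p = 0.000319, DESeq2 adjusted p = 0.414). In CD8 cells, 31 of its 69 UMIs in vehicle and 78 of its 91 in niacin replicate 2 were in 1 cell each. Gzmb, encoding granzyme B, was not called (497, 0 and 0 CPM against 589, 80 and 55 CPM, edgeR adjusted p = 0.214).

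Outside the effector list, Ly6c2, a surface protein of activated and memory CD8 cells, had 146, 34 and 33 CPM in CD4 cells and 1593, 1017 and 980 CPM in CD8 cells (log2 difference -4.21, SE 0.24, edgeR adjusted p = 1.54e-09). Cd160, a receptor of CD8 and natural killer cells, had 2, 11 and 0 CPM against 80, 101 and 174 CPM (log2 difference -4.78, SE 0.55, edgeR adjusted p = 1.81e-05). Itga1, a collagen-binding integrin of tissue-resident cells, had 77, 26 and 92 CPM against 327, 363 and 259 CPM (log2 difference -2.32, SE 0.27, edgeR adjusted p = 1.81e-05). For all 3 genes the highest CD4 value stayed below the lowest CD8 value. Atp8b4 and Slamf7 completed the genes with the largest negative differences, at -2.59 and -2.35.

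Of 21 activation and residency genes tested, 7 were higher in CD4 cells and 2 lower, among them Itga1, with a median log2 difference of 0.46. Ccr2, a receptor for monocyte chemokines, was at 321, 318 and 314 CPM in CD4 cells and 36, 76 and 48 CPM in CD8 cells, a gap far larger than the spread in either class (log2 difference 2.46, SE 0.23, edgeR adjusted p = 2.96e-06). The other 6, Cd44, Lgals1, Lgals3, S100a4, S100a10 and S100a11, differed by log2 values of 0.60 to 1.69. Of these 6, S100a4 (0.92) was still called whichever library was left out, while without niacin replicate 1 the adjusted p was 0.0725 for Lgals1, 0.251 for Lgals3, 0.156 for S100a10 and 0.155 for S100a11. Without niacin replicate 2 it was 0.167 for Cd44, 0.473 for S100a10 and 0.414 for S100a11, and without the vehicle library it was 0.134 for Cd44. With all shared barcodes dropped, 1 of 19 genes of this list was higher.

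Among 11 T cell receptor and signaling genes, Cd5, a negative regulator of receptor signaling, was higher (176, 183 and 241 CPM against 22, 46 and 89 CPM, log2 difference 1.78, edgeR adjusted p = 0.000319), as was Cd6 (0.91, adjusted p = 0.0394, lost without niacin replicate 1 at 0.137 and without niacin replicate 2 at 0.132), and 9 were not called. Of 11 naive and central memory genes, 1 was higher (S1pr1, the receptor for exit from tissue, 281, 150 and 175 CPM against 102, 63 and 58 CPM, log2 difference 1.36, edgeR adjusted p = 0.00121) and 2 were lower (Dapl1 and Foxp1). Of 12 immediate early genes, 5 were higher (Btg2, Dusp1, Egr1, Fosb and Jund), of which Jund was lost without the B-rich barcode (adjusted p = 0.0703). Of 20 interferon-stimulated genes, 1 was higher (Ifi27l2a) and 4 were lower (Bst2, Ifit1, Ifit3 and Isg15); without niacin replicate 2 the adjusted p was 0.391 for Ifi27l2a, 0.473 for Bst2, 0.342 for Ifit1 and 0.574 for Isg15. Of 4 inhibitory receptor and exhaustion genes, Cd160 and Nr4a2 were lower. Of 6 cell cycle genes, Tubb5 was lower (adjusted p = 0.0451), a call lost whichever library was left out, with adjusted p-values of 0.0972 to 0.305.

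**Figure D3:**
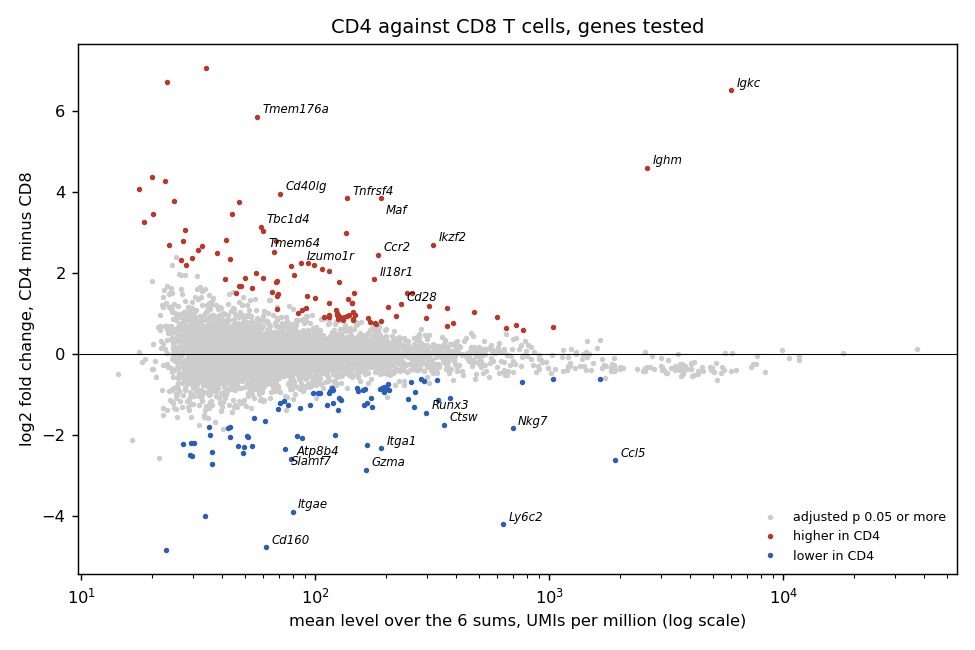
Log2 difference of CD4 minus CD8 T cells (vertical axis) against the mean CPM of the 6 sums on a log axis (horizontal) for the genes tested, called genes coloured and the named ones labelled. Cd40lg, Maf and Tnfrsf4 lie near 4, Ly6c2 and Itgae near -4, and Igkc and Ighm, set by the B-rich barcode, at the upper right.

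Foxp3-positive cells made up a larger share of the CD4 cells in the vehicle library than in the niacin libraries. A Foxp3 UMI was seen in 26 of 97 CD4 cells in vehicle (26.8%, exact binomial 95% interval 18.3 to 36.8), 4 of 54 in niacin replicate 1 (7.41%, 2.06 to 17.9) and 5 of 58 in niacin replicate 2 (8.62%, 2.86 to 19.0), and 20, 3 and 3 of these cells had at least 2. The vehicle interval lies above that of niacin replicate 1 and overlaps that of niacin replicate 2 by less than 1 percentage point. With each cell thinned to 1000 UMIs (3, 3 and 2 shallower cells left out) the shares were 13.8%, 3.92% and 5.36%, in the same order of vehicle above both niacin libraries, with overlapping intervals. Background was low: Foxp3 was seen in 0 of 25, 1 of 48 and 0 of 43 CD8 cells (median depths of 5275, 5263 and 6507 UMIs; the counts of 0 allow up to 12% and 6.98%) and in 1 of 393, 0 of 755 and 0 of 871 microglia. On Cd4 alone as the gate, 15 of 60, 3 of 37 and 0 of 39 cells were Foxp3-positive. Another 10, 4 and 2 Foxp3-positive cells lay outside the gate.

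The 35 Foxp3-positive cells were compared with the 174 Foxp3-negative cells of the gate by their levels alone, since no test was made with fewer than 10 Foxp3-positive cells in each niacin library. In the vehicle library, with 26 and 71 cells, the regulatory T cell list of 23 genes without Foxp3 came to 12209 CPM in Foxp3-positive and 3010 CPM in Foxp3-negative cells, and in niacin replicates 1 and 2 to 4776 against 1482 CPM and 5820 against 1536 CPM. The Foxp3-positive side was thus higher in all 3 libraries, with 4 and 5 cells behind the niacin values. This list holds Il2ra and Ctla4, which the gate used. In the vehicle library Ikzf2 was at 2759 CPM in Foxp3-positive and 696 CPM in Foxp3-negative cells (exact Poisson 95% intervals 2465 to 3079 and 611 to 789). Tnfrsf9, encoding the costimulatory receptor 4-1BB, was at 1147 against 125 CPM, Tnfrsf18, encoding GITR, at 1078 against 294 CPM, and Tnfrsf4 at 897 against 245 CPM. Ikzf4, encoding the FOXP3 partner Eos, was at 241 against 23 CPM. Ikzf2, Ikzf4 and Tnfrsf4 lay on the same side in both niacin libraries, while in niacin replicate 1 Tnfrsf9 had no UMI in the Foxp3-positive cells and Tnfrsf18 was at 138 against 134 CPM.

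Other genes lay on the same side in the vehicle library, and not all of them did so with niacin. Maf was at 992 CPM in Foxp3-positive and 328 CPM in Foxp3-negative cells, Gzmb at 931 against 354 CPM and S100a4 at 707 against 217 CPM. Maf lay the other way in niacin replicate 1 (46 against 309 CPM) and S100a4 in both niacin libraries (551 against 1152 CPM and 221 against 937 CPM), and Gzmb had no UMI with niacin. Ighm, an immunoglobulin gene, was at 793 against 125 CPM in vehicle. The genes that follow were lower on the Foxp3-positive side of the vehicle library. Satb1, a chromatin organizer, was at 69 against 656 CPM, Tcf7, encoding TCF1, at 121 against 505 CPM, and Il7r, the interleukin-7 receptor, at 362 against 915 CPM. Cxcr6, a chemokine receptor of resident T cells, was at 17 against 288 CPM, and Ccl5 at 129 against 701 CPM. Ifng, encoding interferon gamma, had no UMI in the 26 Foxp3-positive cells and 148 CPM in the Foxp3-negative cells, where 9 cells carried it. The 20 interferon-stimulated genes summed to 7312 and 7127 CPM on the Foxp3-positive and Foxp3-negative sides of the vehicle library, to 2388 and 2228 CPM in niacin replicate 1, and to 2358 and 2722 CPM in niacin replicate 2. The intervals of the single genes cover counting error within 1 library only.

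**Figure D4:**
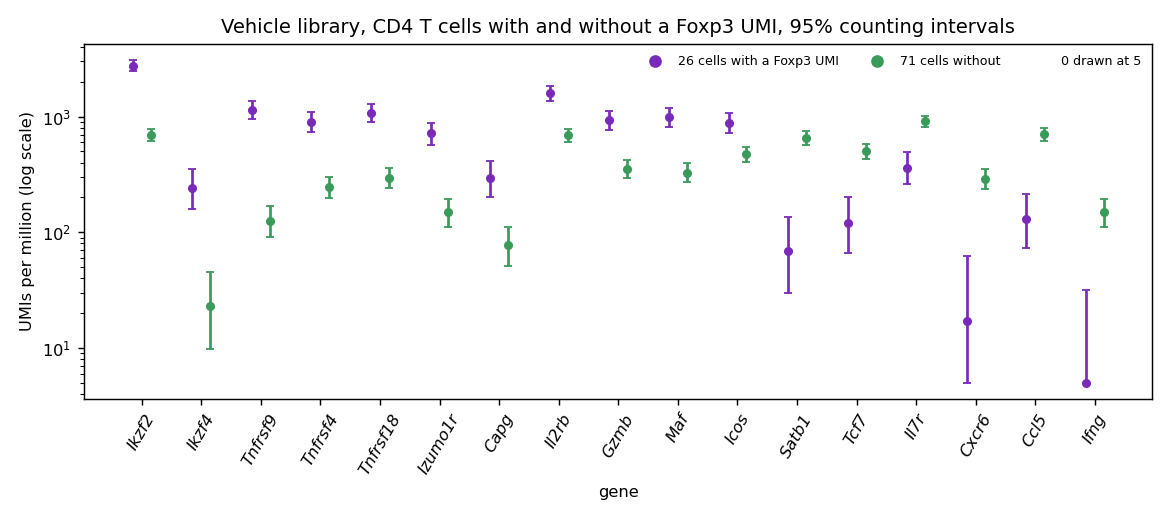
CPM on a log axis (vertical) of genes (horizontal axis) in the 26 vehicle CD4 T cells with a Foxp3 UMI and the 71 without; bars are exact Poisson 95% intervals and a value of 0 is drawn at 5. Genes from Ikzf2 to Icos lie higher in the cells with Foxp3, and Satb1, Tcf7, Il7r, Cxcr6, Ccl5 and Ifng lie higher in the cells without.

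Gata3 was the helper regulator seen in most cells, in 52, 23 and 21 of the CD4 cells of vehicle, niacin replicate 1 and niacin replicate 2 (53.6%, 42.6% and 36.2%), and 17 of the 52 vehicle cells also carried Foxp3. Tbx21 was seen in 12, 4 and 6 cells and Bcl6 in 1, 1 and 2. Among cytokines, Ifng was seen in 9, 8 and 16 cells, Il2, the T cell growth factor, in 2, 2 and 9, Il21 in 3, 1 and 1, and Il10 in 1, 1 and 0. Il5 was seen in 2 cells of niacin replicate 2 and in no cell of the other two libraries. At least 2 of 7 cell cycle genes were seen in 4, 1 and 2 cells.

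The niacin libraries were compared with the vehicle library to ask how the CD4 cells of treated and control pools differ. Interferon-stimulated genes, granzyme B and several regulatory T cell genes were lower in both niacin libraries, and S100a4, Cxcr6 and haemoglobin transcripts were higher. The edgeR quasi-likelihood test takes its spread from the 2 niacin libraries alone, with the vehicle library assumed to vary like them. The gate genes were also carried unequally: Icos was seen in 71 of 97 vehicle cells and in 22 of 54 and 28 of 58 niacin cells. How much of the niacin differences in regulatory T cell and activation genes follows from this was not tested. Of 5475 genes tested, 0.584% were higher and 0.639% lower with niacin (32 and 35 genes). Without the B-rich barcode the counts were 350 and 406 (6.35% and 7.36%), and all 67 calls were among them; without the Foxp3-positive cells they were 194 and 212 (3.69% and 4.04%). List counts are to be read against the shares of all genes in the same fit. Those of the interferon, cytotoxic, regulatory T cell and activation lists are given both ways. Other lists are given in the main fit only.

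Of 20 interferon-stimulated genes, none was higher and 7 were lower with niacin, among them Gbp2, Ifi27l2a, Ifit1, Igtp, Iigp1 and Isg15, with a median log2 difference of -1.78 against 0.02 over all genes. Without the B-rich barcode 19 were lower and without the Foxp3-positive cells 17. Ifit1, an antiviral RNA sensor, had 231 CPM in vehicle and 15 and 30 CPM in niacin replicates 1 and 2 (log2 difference -3.11, SE 0.38, edgeR adjusted p = 0.036). Both niacin values were far below the vehicle value. Iigp1, an interferon-inducible GTPase gene, had 219 CPM against 19 and 23 CPM (log2 difference -3.14, SE 0.35, edgeR adjusted p = 0.0359). Cxcl10, a chemokine induced by interferon, had 156 CPM against 4 and 20 CPM (log2 difference -3.42, SE 0.50, edgeR adjusted p = 0.0466). Microglia had 181, 5 and 3 CPM of Cxcl10. In vehicle it was seen in 68 of 393 microglia and in 19 of 97 CD4 cells. How much of its vehicle level is expression by CD4 cells was not tested. Rsad2, encoding the antiviral protein viperin, had 67 UMIs in vehicle and 2 in the niacin libraries together (ratio 40.9, exact 95% counting interval 10.9 to 345; edgeR adjusted p = 0.036). The list summed to 7173, 2241 and 2705 CPM in CD4 cells. It moved the same way in the other cells of these libraries, with 6239, 2308 and 3802 CPM in CD8 cells, 2819, 497 and 804 CPM in natural killer cells and 4165, 697 and 758 CPM in microglia. The natural killer values rest on 65 cells in vehicle and only 8 and 11 in niacin replicates 1 and 2.

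Gzmb, a serine protease of cytotoxic granules that regulatory T cells can also carry, had 232 UMIs in 29 of the 97 vehicle CD4 cells (497 CPM), of which 81 UMIs were in 1 cell, and none in the 54 and 58 niacin cells. Set against a floor of 3 UMIs over the niacin group, this was at least 94.4-fold lower with niacin (edgeR adjusted p = 0.0118). Gzma had 66 UMIs in vehicle and none with niacin, at least 26.9-fold lower (edgeR adjusted p = 0.0359; 0.0728 with the gate on Cd4 alone), and 31 of the 66 UMIs were in 1 cell. A Gzma UMI was seen in 18 of 97 vehicle CD4 cells and in 90 of 393 vehicle microglia, a share no lower than that of the CD4 cells. The levels were 141 CPM in these CD4 cells and 43 CPM in these microglia, which had a higher median depth. How much of the vehicle level is expression by CD4 cells was not tested. With niacin, 9 of 755 and 5 of 871 microglia had a Gzma UMI. In vehicle, 29.9% of CD4 cells and 11.5% of microglia had a Gzmb UMI (median depths of 4668 and 6466 UMIs; 19.1% and 2.20% after thinning to 1000 UMIs), and with niacin 1 of 755 and 1 of 871 microglia did. CD8 cells had 589, 80 and 55 CPM of Gzmb. Natural killer cells, for which granzyme B is a defining effector, had 2039, 191 and 909 CPM (298, 5 and 52 UMIs). Of 11 cytotoxic effector genes tested in CD4 cells, these 2 were lower and none was higher, and 4 were lower and 1 higher without the B-rich barcode.

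Of 15 regulatory T cell genes tested, none was higher and 4 were lower with niacin (Ikzf2, Il2rb, Izumo1r and Tnfrsf9), with a median log2 difference of -1.22; without the B-rich barcode 10 were lower and 1 higher. Ikzf2 had 1208 CPM in vehicle and 310 and 182 CPM with niacin (log2 difference -2.07, SE 0.30, edgeR adjusted p = 0.0452). Il2rb, the interleukin-2 receptor beta chain, had 911 CPM against 221 and 185 CPM (log2 difference -1.94, SE 0.21, edgeR adjusted p = 0.035). Tnfrsf9 had 379 CPM against 11 and 23 CPM (log2 difference -4.19, SE 0.37, edgeR adjusted p = 0.0199). For these called genes both niacin libraries lay under the vehicle library by more than they differed from each other. This is no further support, since the test that called them takes its spread from the niacin libraries alone. Izumo1r had 289 CPM against 79 and 76 CPM (log2 difference -1.68, SE 0.27, edgeR adjusted p = 0.0472; 0.0625 with all shared barcodes dropped and 0.0682 by DESeq2). Foxp3 itself had 259 CPM against 64 and 33 CPM and was not called (log2 difference -2.21, edgeR adjusted p = 0.0506).

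The same genes were also read in the cells without a Foxp3 UMI, some of which may carry undetected Foxp3. There Ikzf2 had 696 CPM in vehicle and 183 and 149 CPM with niacin, Il2rb 687 CPM against 216 and 190 CPM, and Tnfrsf9 125 CPM against 12 and 17 CPM. Ikzf2, Il2rb, Izumo1r and Tnfrsf9 were lower in these cells too, with log2 differences of -1.89, -1.58, -1.27 and -2.86 (edgeR adjusted p of 0.033 for Izumo1r, the highest of the 4). Of 12 regulatory T cell genes tested in the Foxp3-negative cells, these 4 were lower and 1 was higher. Gzmb had 354 CPM in the Foxp3-negative vehicle cells and no UMI with niacin.

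Higher with niacin were 3 of 21 activation and residency genes, S100a4, S100a10 and S100a11, which encode S100 family proteins of migrating and effector cells. S100a4 had 339 CPM in vehicle and 1103 and 905 CPM with niacin (log2 difference 1.79, SE 0.23, edgeR adjusted p = 0.0367), and S100a10 had 486 CPM against 1309 and 1047 CPM (log2 difference 1.50, SE 0.24, edgeR adjusted p = 0.0472). Without the B-rich barcode 8 of the list were higher and 1 lower, and with all shared barcodes dropped none was called, at adjusted p-values of 0.198 for S100a4, 0.147 for S100a10 and 0.0789 for S100a11. Cxcr6 had 221 CPM against 599 and 601 CPM (log2 difference 1.66, SE 0.21, edgeR adjusted p = 0.036) and was the 1 of 10 T helper 1 genes called. In CD8 cells of the same libraries S100a4 was at 80, 553 and 621 CPM and Cxcr6 at 342, 608 and 846 CPM. Natural killer cells had 27, 191 and 664 CPM of S100a4 (4, 5 and 38 UMIs). Cd40lg had 54 CPM in vehicle and 198 and 152 CPM with niacin, was seen in 18 of 97, 29 of 54 and 24 of 58 cells, and was not called (log2 difference 1.92, edgeR adjusted p = 0.0552). Its shares after thinning to 1000 UMIs were 8.51%, 25.5% and 16.1%, and 0 of 393, 0 of 755 and 0 of 871 microglia carried it.

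**Figure D5:**
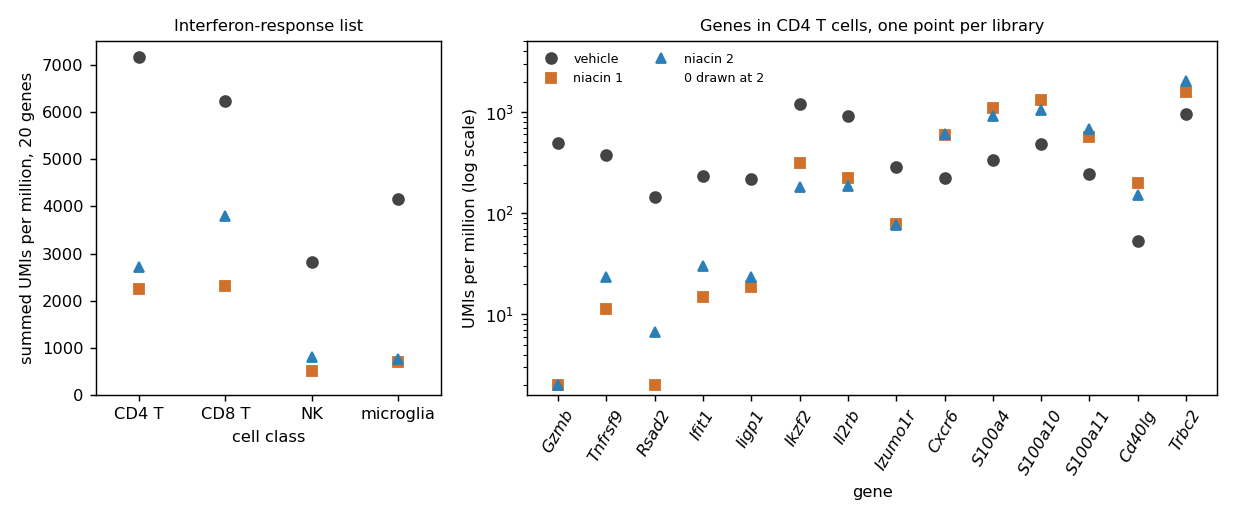
Left, summed CPM of the 20 interferon-stimulated genes (vertical axis) in 4 cell classes (horizontal axis); right, CPM on a log axis of genes in CD4 T cells, with 1 point per library and a value of 0 drawn at 2. The vehicle point is highest in each class on the left (7173 CPM against 2241 and 2705 CPM in CD4 cells); on the right all genes but Cd40lg and Trbc2 passed the test.

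The other genes among those with the largest positive differences include transcripts of red blood cells. Hbb-bs, a beta-globin gene, had 11 CPM in the vehicle CD4 cells and 370 and 202 CPM with niacin (log2 difference 4.91, edgeR adjusted p = 0.036), and 161, 3121 and 5570 CPM in microglia of the same libraries. Of 4 erythroid genes tested, Hba-a2, Hbb-bs and Hbb-bt were higher in CD4 cells, and reads of Hba-a2 may be shared with its near-identical copy Hba-a1. The erythroid list summed to 26, 707 and 386 CPM in CD4 cells, 22, 852 and 321 CPM in CD8 cells and 351, 6952 and 11520 CPM in microglia; its part in the result was not tested. Ech1 and Atp5g1, of fatty acid oxidation and the mitochondrial ATP synthase, had 17 CPM against 94 and 112 CPM and 64 CPM against 228 and 244 CPM, and Atp5g1 had 87, 236 and 225 CPM in CD8 cells. Lztfl1 had 17 CPM against 157 and 142 CPM, with 21 of 42 and 24 of 43 UMIs in 1 cell each. The pseudogene Olfr1369-ps1 had 3 UMIs in vehicle and 91 with niacin (ratio 24.8, exact 95% counting interval 8.23 to 123), of which 40 were in 1 cell.

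Daxx and Mxd1 were the remaining genes among those with the largest negative differences. Daxx, a nuclear death domain-associated protein gene, had 135 CPM in vehicle and 11 and 20 CPM with niacin (log2 difference -2.85, edgeR adjusted p = 0.0441), and Mxd1, a MYC antagonist, 246 CPM against 26 and 40 CPM (log2 difference -2.66, edgeR adjusted p = 0.036). Both were also lowest in niacin replicate 1 among CD8 cells (131, 25 and 55 CPM for Daxx and 138, 17 and 48 CPM for Mxd1). With the B-rich barcode in, none of 11 T cell receptor and signaling genes, 11 naive and central memory genes, 12 immediate early genes or 6 cell cycle genes was called between niacin and vehicle. In that fit 0.584% of all genes were called higher and 0.639% lower, and counts of these lists without the barcode are not given. Without such a call these lists had median log2 differences of 0.22, -0.88, 0.10 and -0.32.

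Whether the niacin difference itself was unequal in CD4 and CD8 T cells was tested as an interaction term in edgeR over both classes. Of 5835 genes, 0.12% had a more positive and 0.206% a more negative difference in CD4 cells (7 and 12 genes). These counts include the B-rich barcode and are not given without it. The positive calls of Igkc and Ighm ended when it was left out (edgeR adjusted p = 0.921 and 0.285). The negative side held Gzmb, Gzma, Ccl4, Ccl5 and Cxcl10, and no gene of the list of 20 interferon-stimulated genes was called on either side. Ifitm2, an interferon-induced membrane protein gene outside that list, named after its values were seen, stood at 13, 60 and 162 CPM in CD4 cells and at 109, 4 and 14 CPM in CD8 cells, opposite directions on 1 to 49 UMIs per sum (log2 difference of differences 6.68, SE 0.90, edgeR adjusted p = 7.95e-10). For the others a missed threshold does not show that the classes moved alike.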

How the data were processed

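3 single-cell libraries of live-sorted cells from tumor-bearing brains (10x Genomics 3′ v3.1) were analysed. The authors deposited raw UMI counts per gene and barcode; the submitters' processing notes name Cell Ranger 3.1, STAR and the mm10 build, and 31053 genes are listed. Cells with at least 200 genes and at most 20% mitochondrial UMIs were kept, and a barcode also found in another library was dropped unless its UMIs were at least 5 times those of the copy. No doublet caller was run. The study found cluster markers over single cells in Seurat; here the UMIs of a class were added up within each library and tested with edgeR 4.0.16 (quasi-likelihood, TMM, filterByExpr, Benjamini-Hochberg over all genes tested, threshold 0.05), with library as a block between CD4 and CD8 cells; DESeq2 1.42.0 was an alternative. The 12 gate genes were left out of calls. CPM are UMIs per 1000000 UMIs of the summed cells; because tags are 3′ UMIs, levels of one gene are compared between cells and not between genes. CD4 sums held 267334 to 466753 UMIs and CD8 sums 137514 to 293003. Intervals are exact 95% binomial or Poisson intervals and, like the floor of 3 UMIs, cover counting error only. The scripts were tested on simulated counts. The members, 27 gene lists (285 genes) and tests were chosen with earlier results of these data known. In addition to list genes, the 8 genes with the largest difference in each direction were named, among genes called, at a mean of at least 50 CPM and moving the same way in 3 of 3 libraries (for niacin, both niacin libraries on 1 side of vehicle). Gene positions are from the GRCm38 annotation. The methods give 5 control and 10 niacin mice, while the labels state that tissue of 4 brains was pooled per sample. Alternatives are given in the closing section. Results of some genes are not reported here.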

Additional observations from a re-analysis of the deposited data

Results flagged for a closer look

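For 12 genes the niacin difference in CD4 T cells departed from that in CD8 T cells of the same libraries, by a test of the difference itself (edgeR quasi-likelihood interaction term, Benjamini-Hochberg adjusted over 5835 genes, of which 0.12% were called in the positive and 0.206% in the negative direction; the 12 are list genes or genes named in the report). Values are log2, the niacin difference in CD4 minus that in CD8 cells, with 1 vehicle library behind each.

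The niacin difference was more negative in CD4 cells for cytotoxic genes and chemokines. It was -6.95 for Gzmb (adjusted p = 2.44e-06) and -6.89 for Gzma (adjusted p = 3.15e-06), fitted values that are no bounds, since the niacin CD4 cells had no UMI of either. Of the 91 Gzma UMIs in the CD8 cells of niacin replicate 2, 78 were in 1 cell. Ccl5 differed by -2.01 (adjusted p = 3.03e-08), with 559, 281 and 687 CPM in CD4 cells and 1207, 3279 and 5430 CPM in CD8 cells of vehicle, niacin replicate 1 and niacin replicate 2. Ccl4, a chemokine of effector cells, differed by -4.33 (adjusted p = 0.0023), with 54, 4 and 7 CPM against 44, 97 and 102 CPM; 16 of the 25 vehicle CD4 UMIs were in 1 cell. Cxcl10 differed by -3.75 (edgeR adjusted p = 5.86e-05). Of its 54 UMIs in the CD8 cells of niacin replicate 2, 50 were in 1 cell. It stood at 156 CPM in vehicle CD4 cells and at 181 CPM in vehicle microglia. Foxp3 differed by -7.70 (adjusted p = 0.0487), where the CD8 value rests on 10 UMIs of 1 cell. Trbc1, a T cell receptor beta constant gene whose reads may be shared with its near copy Trbc2, differed by -1.52 (adjusted p = 0.00358), with 525, 284 and 555 CPM against 327, 933 and 689 CPM.

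The difference was more positive in CD4 cells for 5 genes. Klf2, a transcription factor of circulating T cells, differed by 2.41 (adjusted p = 4.29e-07), with 214, 262 and 175 CPM in CD4 cells and 604, 177 and 82 CPM in CD8 cells, where 58 of the 83 vehicle UMIs were in 1 cell. Trdc, the T cell receptor delta constant gene, differed by 3.52 (adjusted p = 0.0332) and was seen in 4, 1 and 1 CD4 cells. It stood at 94, 97 and 36 CPM in CD4 cells and at 95, 0 and 10 CPM in CD8 cells. Of its 13 UMIs in the vehicle CD8 cells, 10 were in 1 cell. Olfr1369-ps1 differed by 4.57 (adjusted p = 3.15e-06), with 53 of 89 UMIs in 1 CD8 cell and 40 of 40 in 1 CD4 cell of niacin replicate 1. Igkc differed by 7.15 (adjusted p = 2.79e-06) and Ighm by 4.09 (adjusted p = 1.09e-05); without the B-rich barcode these were -0.51 (adjusted p = 0.921) and -1.56 (adjusted p = 0.285).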

How the results depend on the processing

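The number of genes tested differs between settings and is given with each pair of counts. Main counts between CD4 and CD8 cells were 105 higher and 84 lower of 4831. They were 28 and 24 of 4831 by DESeq2, 19 and 11 of 875 with cells thinned to 1000 UMIs, and 55 and 42 of 3367 with all shared barcodes dropped. With no replicate block for library they were 13 and 13 of 4183, and with the gate on Cd4 alone 75 and 46 of 4127. Leaving out each library gave 61 to 100 higher and 44 to 91 lower, of 4036 to 4589 genes. Of 68 called list or named genes, 37 were called in all 3 of these leave-one-out fits, 24 lost the call in at least 1, and 7 were not tested in some; none changed direction. For niacin against vehicle the counts were 32 higher and 35 lower of 5475. They became 90 and 22 of 1011 by DESeq2, 137 and 155 of 5475 with RLE normalization, and 269 and 348 of 12796 with no low-count filter. The gate on Cd4 alone gave 250 and 252 of 4335, shared barcodes dropped 29 and 86 of 5306, and shared barcodes kept 374 and 346 of 5519. Chosen after seeing the data, leaving out Foxp3-positive cells gave 194 and 212 of 5254, the B-rich barcode 350 and 406 of 5514, and the 5% deepest cells 292 and 337 of 5219. With 1 vehicle library and 1 residual degree of freedom, leaving out a niacin library gives values and no test. On Cd4 alone CD4 cells were 4.75%, 2.62% and 2.45% of the cells, and at most 10% mitochondrial UMIs left 2.41% in niacin replicate 1. The Foxp3-positive share in vehicle was 13.8% with cells thinned to 1000 UMIs and 11.3% at 500; in niacin replicate 1 it was 1.85% at 500, and in niacin replicate 2 it was 0% on Cd4 alone, 1.72% at 500 and 2.27% at 2000 UMIs, and 1 of 40 cells with at most 10% mitochondrial UMIs. Other settings for Foxp3-positive against Foxp3-negative cells were not run, since no test was made. The cause of these changes was not tested. Depth limits the sparse genes most: a gene with no UMI in a cell is not shown to be unexpressed there.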
